A study of Mus musculus with 46 samples.

Results

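The 39 genes described here encode enzymes that break down amino acids in the liver. They were chosen by name, as a list of enzymes of amino acid catabolism, and matched by gene symbol. All 39 were found among the 55487 genes of each deposited table. By pathway they comprised 4 enzymes of tyrosine breakdown, 5 of tryptophan, 4 of histidine, 4 of serine and glycine, 4 of proline and ornithine, 9 of the branched-chain amino acids, 2 aminotransferases of aspartate and alanine, 6 of methionine and methyl-group metabolism, and 1 of lysine.

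The study, whose title concerns signals from mitochondria and the identity of metabolic tissues, sequenced RNA from 46 mouse samples. The livers were 6 control, 4 Mfn DKO and 3 Tfam KO, flash frozen, and their descriptions carry the letters AAV without writing them out. Mfn1 and Mfn2 encode the mitofusins, which fuse mitochondria, and Tfam encodes a factor that packages and transcribes mitochondrial DNA. Islets, cultured overnight, were from Tfam controls (5 female, 3 male), Tfam KO (4 female, 2 male), Clec16a controls (4 on the diet labelled RFD, 6 on HFD) and Clec16a KO (4 on RFD, 5 on HFD). Clec16a encodes a regulator of mitophagy. The labels give no strain, age or floxed allele, no promoter or Cre, and no sex for the livers. They number the samples as biological replicates.

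Excess amino acids are not stored, so the liver removes the amino group, usually by transamination, and passes the carbon skeleton to the citric acid cycle, to glucose or to ketone bodies. Many of these steps lie inside mitochondria, where proline dehydrogenase, the branched-chain ketoacid dehydrogenase and the glycine cleavage system work. Several enzymes of these routes, such as those that degrade tyrosine and tryptophan, are textbook markers of the mature hepatocyte and respond to glucocorticoids, glucagon and feeding. Islets of the pancreas are endocrine tissue and share only some of these routes.

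Total counts ran from 41961114 to 56894510 in the livers, from 55223041 to 83342809 in the Tfam islets and from 16235173 to 55810879 in the Clec16a islets. Of the targeted genes, Mfn1 (log2 change -2.0 ± 0.15 SE) and Mfn2 (-2.04 ± 0.16) were lower in Mfn DKO livers, and Tfam was lower in Tfam KO livers (-2.0 ± 0.11) and Tfam KO islets (-1.21 ± 0.06). Clec16a RNA was not called in the libraries labelled Clec16a KO, with 0.13 ± 0.13 on RFD and 0.08 ± 0.11 on HFD. Those labels therefore have no check in the RNA of the targeted gene. The library labelled Clec16a KO HFD 4 stood with the controls in several genes of the stress response, for example Trib3, at 4.69 CPM against 58.1 to 92.7 in the other 4 KO HFD libraries and 3.64 to 6.98 in the controls. The HFD changes of the enzymes are therefore given with and without it.

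The promoters of the 3 enzymes called higher in Mfn DKO livers are shown first. Each is the 250 bases before the RefSeq transcription start on GRCm38.p6, written 5′ to 3′ on the strand of the gene. Capitals mark a match to the C/EBP-ATF response element TGATGNAA, searched on both strands.

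Got1 (chr19:43524606-43524855, minus strand): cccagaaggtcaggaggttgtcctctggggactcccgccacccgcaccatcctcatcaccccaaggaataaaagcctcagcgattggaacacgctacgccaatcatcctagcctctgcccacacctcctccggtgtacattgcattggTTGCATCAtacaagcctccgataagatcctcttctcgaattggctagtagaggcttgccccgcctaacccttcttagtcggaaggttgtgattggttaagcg
Tat (chr8:109990186-109990435, plus strand): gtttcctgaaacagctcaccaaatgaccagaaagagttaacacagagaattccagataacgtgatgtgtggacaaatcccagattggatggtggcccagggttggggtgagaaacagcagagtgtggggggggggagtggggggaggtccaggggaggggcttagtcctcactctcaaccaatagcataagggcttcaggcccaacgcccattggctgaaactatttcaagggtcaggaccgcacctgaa
Gldc (chr19:30175442-30175691, minus strand): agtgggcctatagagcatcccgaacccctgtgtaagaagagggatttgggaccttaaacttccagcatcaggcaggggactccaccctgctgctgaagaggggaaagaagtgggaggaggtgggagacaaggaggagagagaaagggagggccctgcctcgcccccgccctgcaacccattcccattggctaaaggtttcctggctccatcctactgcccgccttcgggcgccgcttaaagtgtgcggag

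RefSeq held a promoter for 33 of the 39 enzymes. Of these 33, only Got1 held TGATGNAA, on the opposite strand, 102 to 95 bases before the start, against 3.91% of the 27025 genes with a promoter. The HNF4A site CAAAGTCCA was found in 0 of the 33 promoters (0.451% of all genes), and the palindromic HNF1 site, given by name only, in 0 (0.0111%). The letters TATAAA of the TATA box, searched on the strand of the gene only, stood in Ftcd and Tdo2 (8.94% of all genes). They lay 29 to 24 bases before the start in Ftcd and 229 to 224 bases before it in Tdo2. A match is a description of these letters and not a measured binding site.

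In control tissue most of these enzymes had higher levels in liver than in islets. The median TPM in the 6 control livers was over 100 for 27 of the 39 enzymes, while 19 had a median under 1 TPM in the 18 control islet libraries. For 36 enzymes every control liver lay above every control islet library, and for 3, Bcat2, Bckdha and Ivd, the ranges overlapped. The tissues come from different experiments, so these levels carry no test. The list was chosen by name, and the share of all genes with liver above islets was not computed.

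**Figure D1:**
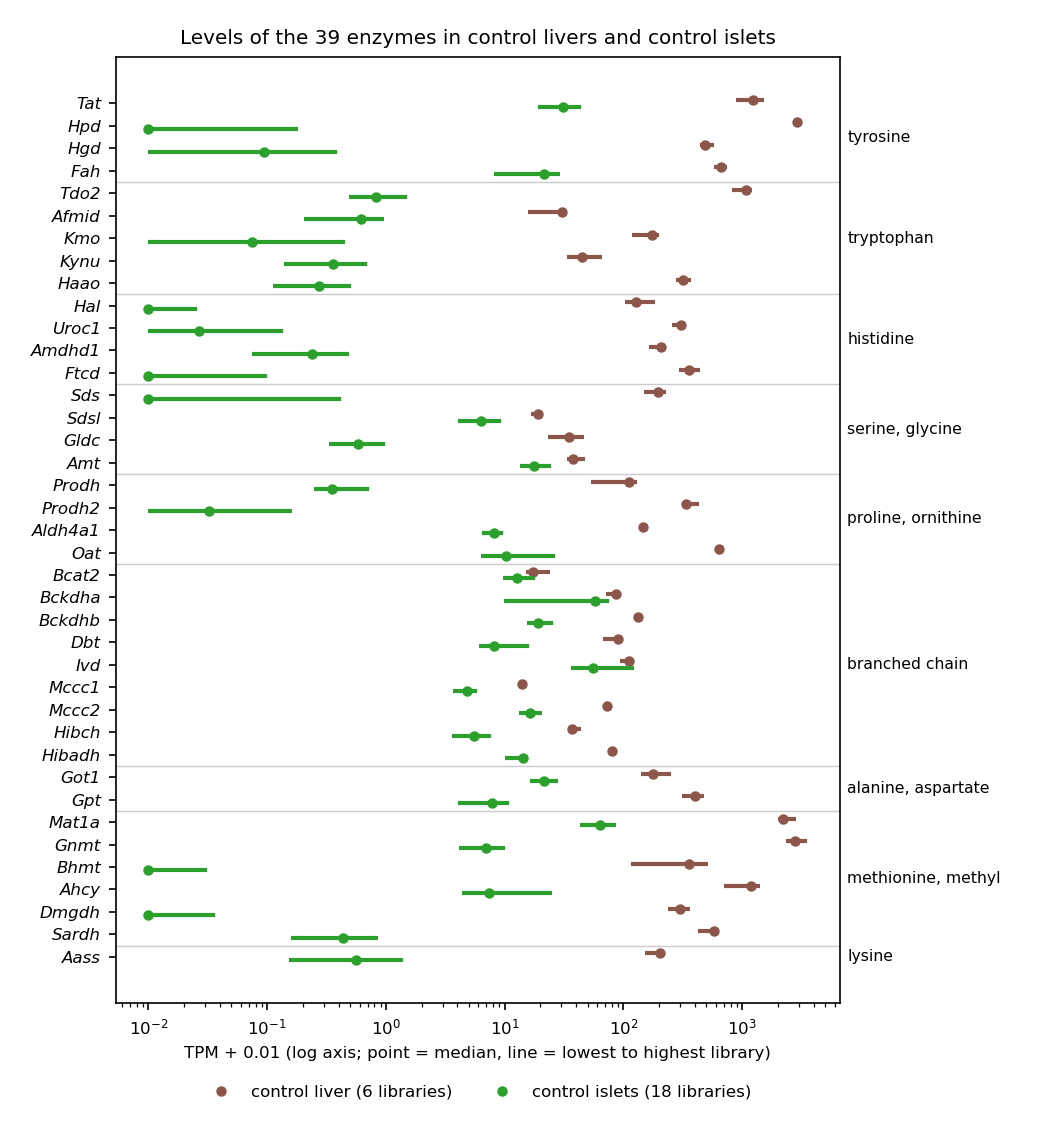
Levels of the 39 enzymes in the 6 control livers and the 18 control islet libraries, in TPM plus 0.01 on a log axis, grouped by pathway. Points are medians and lines run from the lowest to the highest library. 36 enzymes have liver ranges above their islet ranges, and the 3 that overlap, Bcat2, Bckdha and Ivd, belong to branched-chain breakdown. The matching share of all genes was not computed.

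The most abundant in control liver, per transcript length, were Hpd, hydroxyphenylpyruvate dioxygenase of the tyrosine route, at a median of 2904 TPM (range 2703 to 3012), and Gnmt, glycine methyltransferase, at 2810 TPM (2329 to 3518). Their ranges overlapped, so the order of these leaders is not fixed. Next came Mat1a, the liver's methionine adenosyltransferase, at 2211 TPM (1989 to 2866). The lowest were Mccc1, the biotin-carrying subunit of methylcrotonyl-CoA carboxylase, at 14 TPM (13.3 to 14.5), and Bcat2, the mitochondrial branched-chain aminotransferase, at 17.3 TPM (15 to 23.9).

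In islets the order was different. Mat1a led at a median of 63.9 TPM (42.9 to 85.9), then Bckdha, a subunit of the branched-chain ketoacid dehydrogenase, at 57.2 TPM (9.77 to 76.2), and Ivd, isovaleryl-CoA dehydrogenase, at 55.8 TPM (36.2 to 122). This order pools both islet experiments, and for Bckdha they differed: its level was 8.27 to 12.9 CPM in the 8 Tfam controls and 48.5 to 67.9 CPM in the 10 Clec16a controls. Hpd was listed at 0 in 16 of the 18 control islet libraries, Bhmt, betaine-homocysteine methyltransferase, in 17, and Dmgdh, dimethylglycine dehydrogenase, in 15. For the 9 branched-chain enzymes the ratio of the liver to the islet median ran only from 1.35 (Bcat2) to 11.0 (Dbt).

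Levels also varied among the control livers. Bhmt ran from 302 to 1463 CPM, on library sizes scaled by the trimmed mean of M-values (TMM), as are all CPM below. Control livers fell into 3 with high Xist (380 to 615 CPM), the RNA of the inactive X chromosome, and 3 with 0.211 to 0.297 CPM, in which the Y-linked Ddx3y was 89.6 to 94.5 CPM. For 23 of the 39 enzymes the 3 Xist-high controls lay below the 3 Xist-low controls without overlap, and for 0 above. Over all genes tested, 12.5% lay below in this way and 15.8% above.

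Bhmt, Ahcy and Kynu were among these 23. Ahcy, adenosylhomocysteinase, was 929 to 1391 CPM in Xist-high and 1664 to 1932 CPM in Xist-low controls. Kynu, kynureninase, was 93.1 to 113 and 152 to 191 CPM. Mfn DKO livers were 2 Xist-high and 2 Xist-low. Tfam KO livers 2 and 3 were Xist-high (781 and 788 CPM) and Tfam KO liver 1 was Xist-low (0.705 CPM). The labels do not give the sex of the livers, so this grouping rests on the RNA alone.

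Few of these enzymes differed in livers without the mitofusins. In Mfn DKO against control livers, 3 of the 39 enzymes were higher, 1 was lower and 35 were not called, by edgeR's quasi-likelihood F-test with Benjamini-Hochberg adjustment over 17024 genes. Of all genes, 9.87% were called, 5.23% higher and 4.64% lower, so the count of 4 was near the background. The median log2 change of the 39 was -0.12, and that of all genes was 0.02. Without overlap between the groups, 3 enzymes lay above the controls (8.95% of all genes) and 8 below (10.3%).

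Tat, tyrosine aminotransferase, opens the tyrosine route (ENSMUSG00000001670, chr8:109990437-109999803). Its level was 4130, 3993, 3386 and 2533 CPM in the 4 Mfn DKO livers, against 962 to 1794 CPM in the 6 controls, with a median of 1384. All 4 lay above every control. The fold was 2.51 (log2 1.33 ± 0.34 SE, adjusted p = 0.0284).

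Gldc, the decarboxylating subunit of the glycine cleavage system (ENSMUSG00000024827, chr19:30098447-30175429), was 178, 173, 190 and 168 CPM against 64.4 to 134 CPM, with a control median of 105. All 4 again lay above the controls, with a log2 change of 0.81 ± 0.19 (adjusted p = 0.0227). Amt, the aminomethyltransferase of the same system, was 38.2 to 48.1 CPM against 40.2 to 54.0 and was not called (-0.10 ± 0.27).

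Got1, the cytosolic aspartate aminotransferase (ENSMUSG00000025190, chr19:43499752-43524605), was 392, 448, 269 and 346 CPM against 167 to 311 CPM, with a control median of 214. Its highest control lay above the lowest Mfn DKO liver. The change was 0.72 ± 0.20 (adjusted p = 0.0437). Its promoter, printed above, was the 1 of 33 with TGATGNAA, which stood in 3.91% of all genes with a promoter.

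Mccc2, the other subunit of the methylcrotonyl-CoA carboxylase of leucine breakdown (ENSMUSG00000021646, chr13:99948530-100015639), was 69.7, 65.5, 64.7 and 64.6 CPM against 88.5 to 110 CPM, with a control median of 93.8. All 4 lay below the controls, and the change was -0.54 ± 0.14 (adjusted p = 0.0277). Its partner Mccc1 was 58.0 to 79.4 CPM against 64.3 to 76.3 and was not called.

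Beside these 4, Mat1a lay above all controls, at 4707 to 5700 CPM against 3227 to 4374 (0.43 ± 0.33, adjusted p = 0.418). Below all controls without a call lay Hpd, Fah, Haao, Ftcd, Prodh2, Bckdhb and Dmgdh. Haao, the dioxygenase that turns hydroxyanthranilate toward NAD, had the widest relative gap, at 266 to 367 CPM against 587 to 845 (-1.11 ± 0.56, adjusted p = 0.219). These tests share their estimate of spread with the 3 Tfam KO livers, which differ widely among themselves.

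Fitted on the Mfn DKO and control livers alone, 17 enzymes were called, 4 higher and 13 lower, where 27.0% of 16080 genes were called. Haao was then at an adjusted p of 2.07e-04 with the same change of -1.11. Without Tfam KO liver 2, 13 were called, 4 higher and 9 lower, with 19.5% of all genes. Without Mfn DKO liver 1 or Mfn DKO liver 2, 0 were called by edgeR (4.05% and 4.69% of all genes). Without Mfn DKO liver 3 or 4 the count was 1 (5.31% and 5.34%). Without each of control livers 1, 2, 3, 4 and 6 it was 2 (5.44% to 7.81%), and without Tfam KO liver 3 it was 8 (16.5%).

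**Figure D2:**
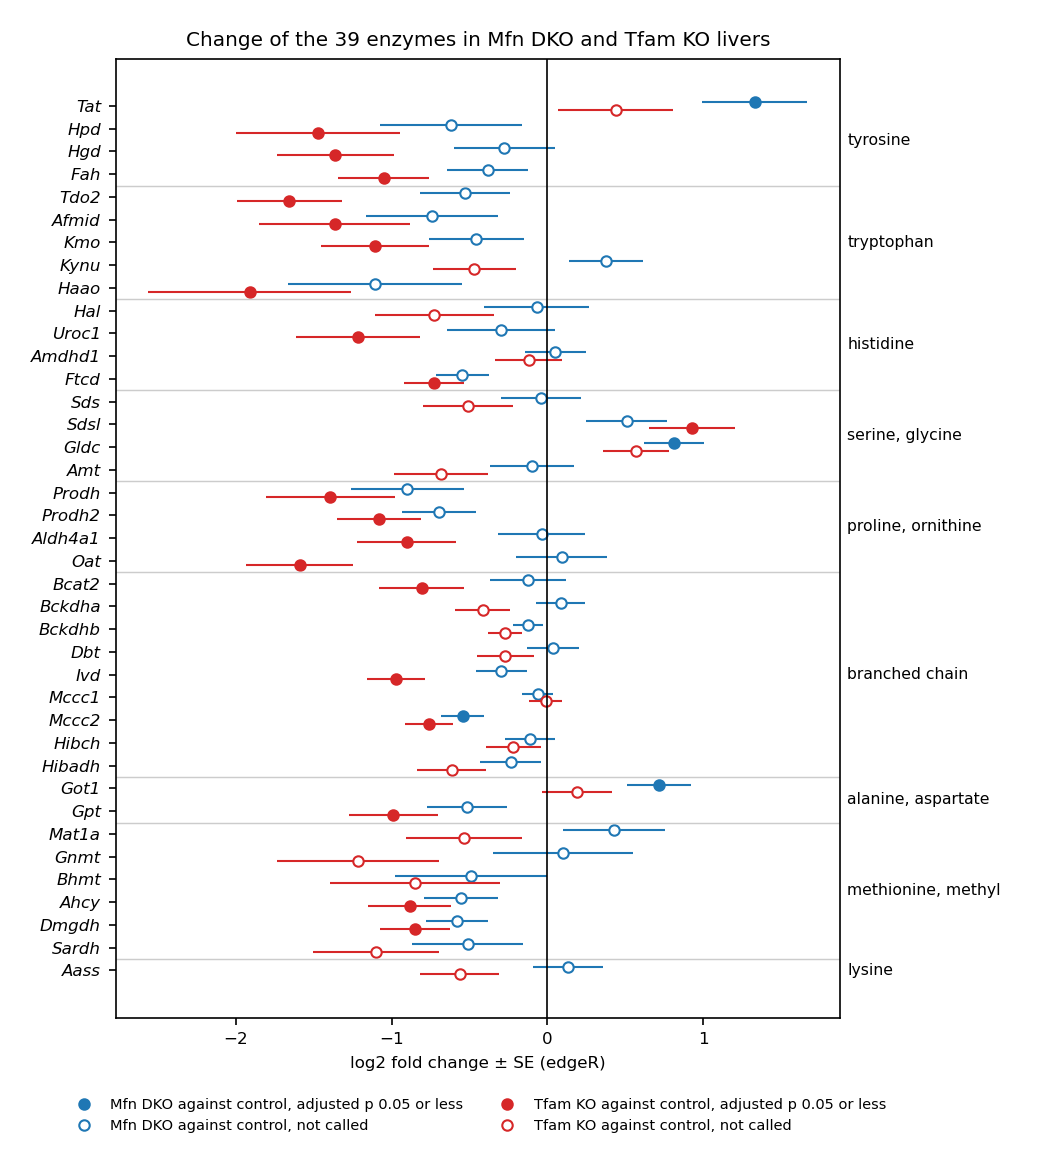
Log2 fold change with its SE for the 39 enzymes in Mfn DKO and Tfam KO livers, each against the same 6 controls. Filled points have an adjusted p of 0.05 or less: 4 in Mfn DKO, of which Tat, Gldc and Got1 are to the right of 0, and 20 in Tfam KO, of which Sdsl alone is to the right.

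A wide share of the list was lower in livers without Tfam. In Tfam KO against control livers 19 of the 39 enzymes were lower, 1 was higher and 19 were not called. Of all genes 29.3% were called, 11.3% lower and 18.1% higher. The median log2 change of the 39 was -0.81, against 0.03 over all genes. Without overlap, 18 enzymes lay below all controls (10.2% of all genes) and 1 above (10.7%). Both knockouts were compared with the same controls, and the values of each stand side by side here.

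The 3 Tfam KO livers differed in degree. The median over the 39 enzymes of the log2 ratio to the control mean was -0.85 in Tfam KO liver 1, -1.77 in liver 2 and -0.33 in liver 3. The number of enzymes below all 6 controls was 28, 35 and 19 in that order. In the Mfn DKO livers the medians ran from -0.14 to -0.30 and the number below all controls from 12 to 21. The share of all genes below all controls was not computed for single livers, so these counts have no background. The summed level of the 39 enzymes was 15054, 5822 and 20317 CPM in the Tfam KO livers, 20938 to 26180 in Mfn DKO and 20584 to 28583 in controls.

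**Figure D3:**
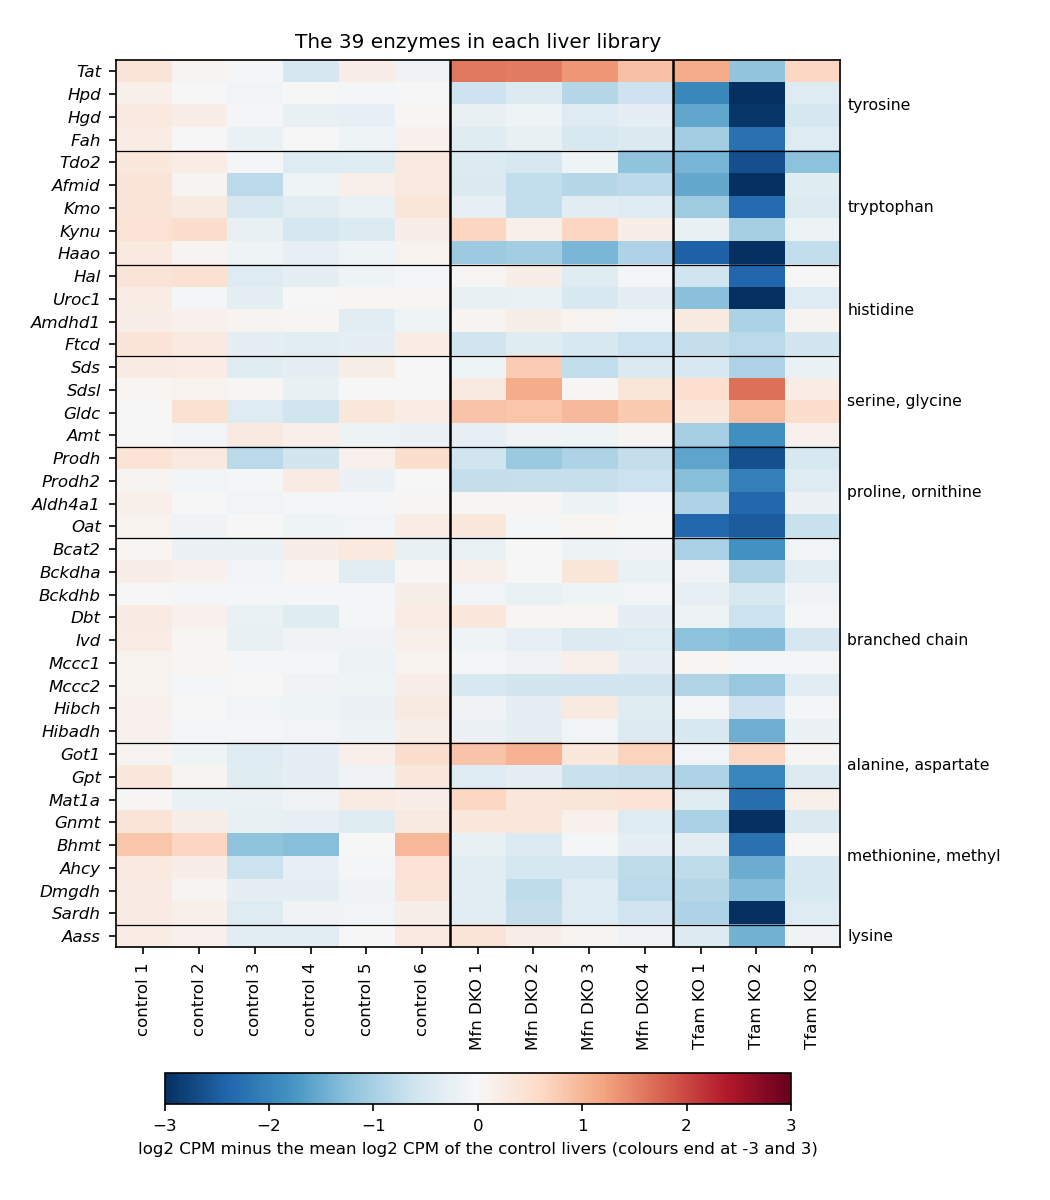
Log2 CPM of each of the 39 enzymes (rows, by pathway) in each of the 13 livers (columns), minus the mean of the control livers; blue is below and red above the controls. Tfam KO liver 2 is the bluest column, with 35 enzymes below every control, and Tfam KO liver 3 the palest of its group, with 19. No share of all genes was computed for these counts. Tat and Gldc are red in all 4 Mfn DKO livers.

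Other measures moved in the same libraries. The summed CPM of 7 hepatocyte markers was 90363 to 143910 in controls, 84639 to 105400 in Mfn DKO and 25774 to 100490 in Tfam KO livers, and 3 of the 7 were called lower in Tfam KO. The TMM factor of Tfam KO liver 2 was 1.43, against 0.862 to 0.929 in controls, and its 50 most abundant genes held 21% of the counts, against 31.7 to 34.3%. Summed markers of macrophages in Tfam KO livers were 289 to 838 CPM against 445 to 822 in controls, of stellate cells 252 to 312 against 265 to 344, of endothelial cells 231 to 284 against 230 to 269, of cholangiocytes 36.7 to 136 against 46.3 to 78.7, and of leukocytes 19.6 to 34.7 against 13.7 to 32.5. The part of these measures in the enzymes' change was not tested. In whole tissue, fewer cells of a type and less RNA per cell cannot be told apart.

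In the tyrosine route 3 of 4 enzymes fell. Hpd fell by 1.47 ± 0.52 on the log2 scale (adjusted p = 0.0499), Hgd, homogentisate dioxygenase, by 1.36 ± 0.38 (0.0177), and Fah, which makes fumarate and acetoacetate in the last step, by 1.05 ± 0.29 (0.0188). The Hpd call held in only 2 of the 13 fits that left out a liver. Tat was not called in Tfam KO, at 2965, 603 and 2107 CPM (0.44 ± 0.37). Livers 1 and 3 lay above every control in Tat and liver 2 below every control. Without Tfam KO liver 2, Tat was higher by 0.86 (adjusted p = 0.026).

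In the tryptophan route, which ends in NAD precursors, 4 of 5 enzymes fell. Tdo2, tryptophan dioxygenase (ENSMUSG00000028011, chr3:81957090-81976202), opens the route and was 711, 300 and 797 CPM against 1430 to 2311 CPM, with a control median of 1971. All 3 Tfam KO livers lay below all controls, and Tdo2 fell by 1.66 ± 0.34 (adjusted p = 0.00447). In Mfn DKO livers it was 804 to 1715 CPM and was not called.

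Haao (ENSMUSG00000000673, chr17:83831156-83847963) had the largest change of the list, at 129, 15.2 and 412 CPM against 587 to 845 CPM, with a control median of 686. Liver 2 was far below livers 1 and 3, and all 3 were below the controls. Haao fell by 1.91 ± 0.65 (adjusted p = 0.0425), a call that held in only 2 of the 13 fits that left out a liver, as did that of Afmid. Afmid, the formamidase of the second step, and Kmo, kynurenine monooxygenase, were also called lower, by 1.37 ± 0.49 and 1.11 ± 0.35, with liver 3 inside the control range for both. Kynu was the 1 enzyme of the route not called (-0.47 ± 0.27).

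In the histidine route Uroc1, urocanate hydratase, fell by 1.22 ± 0.40 and Ftcd, which hands the formimino group to folate, by 0.73 ± 0.19. Ftcd was even across the 3 livers, at 304 to 355 CPM against 428 to 697. Hal, histidase, and Amdhd1, imidazolonepropionase, were not called. Amdhd1 was 263, 114 and 233 CPM against 176 to 253, so that only liver 2 lay below the controls.

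Of the 4 serine and glycine enzymes 0 were called lower. Sdsl, serine dehydratase-like (ENSMUSG00000029596, chr5:120458186-120472810), was 18.7, 41.9 and 15.4 CPM against 11.3 to 14.3 CPM, with a control median of 13.5. All 3 lay above the controls, with liver 2 the highest, and Sdsl rose by 0.93 ± 0.28 (adjusted p = 0.0255). Sds, serine dehydratase, was 78.8 to 130 CPM against 117 to 176 and was not called. Gldc, which rose in Mfn DKO livers, was 122, 186 and 140 CPM in Tfam KO (0.57 ± 0.21, adjusted p = 0.060).

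All 4 enzymes of proline and ornithine fell. Oat, ornithine aminotransferase (ENSMUSG00000030934, chr7:132557478-132576398), was 135, 124 and 436 CPM against 637 to 807 CPM, with a control median of 677. The 3 livers lay below all controls, and Oat fell by 1.59 ± 0.35 (adjusted p = 0.00604). In Mfn DKO livers Oat was 871, 676, 721 and 706 CPM, inside or above the control range. Prodh, proline dehydrogenase, fell by 1.39 ± 0.42, Prodh2, the hydroxyproline dehydrogenase, by 1.08 ± 0.27, and Aldh4a1, the dehydrogenase of the second step, by 0.91 ± 0.32 (adjusted p = 0.0483). The Aldh4a1 call held in only 1 of the 13 fits that left out a liver.

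Among the 9 branched-chain enzymes 3 fell. Mccc2 was the only enzyme of the 39 called in both knockouts, at 51.0, 43.9 and 75.8 CPM in Tfam KO against the same 88.5 to 110 CPM (-0.76 ± 0.15, adjusted p = 0.00417). All 3 lay below the controls. Ivd fell by 0.97 ± 0.19 (adjusted p = 0.00328), the smallest adjusted p of the list, and Bcat2 by 0.81 ± 0.28. The ketoacid dehydrogenase subunits Bckdha, Bckdhb and Dbt changed by -0.42, -0.27 and -0.27, and Mccc1 by -0.01, without a call. Hibch and Hibadh, of the valine route, changed by -0.22 and -0.62 without a call.

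Of the aminotransferases, Gpt, alanine aminotransferase, fell by 0.99 ± 0.29 (adjusted p = 0.0220) and Got1 was not called (0.19 ± 0.23). In methionine and methyl metabolism Ahcy fell by 0.89 ± 0.27 and Dmgdh by 0.85 ± 0.22. Mat1a, Gnmt, Bhmt and Sardh, sarcosine dehydrogenase, were not called, with changes of -0.53, -1.22, -0.85 and -1.10 and wide errors. Gnmt was 813, 103 and 1180 CPM against 1236 to 2081, so every Tfam KO liver lay below the controls. Aass, which opens lysine breakdown, changed by -0.56 ± 0.25 (adjusted p = 0.107).

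**Figure D4:**
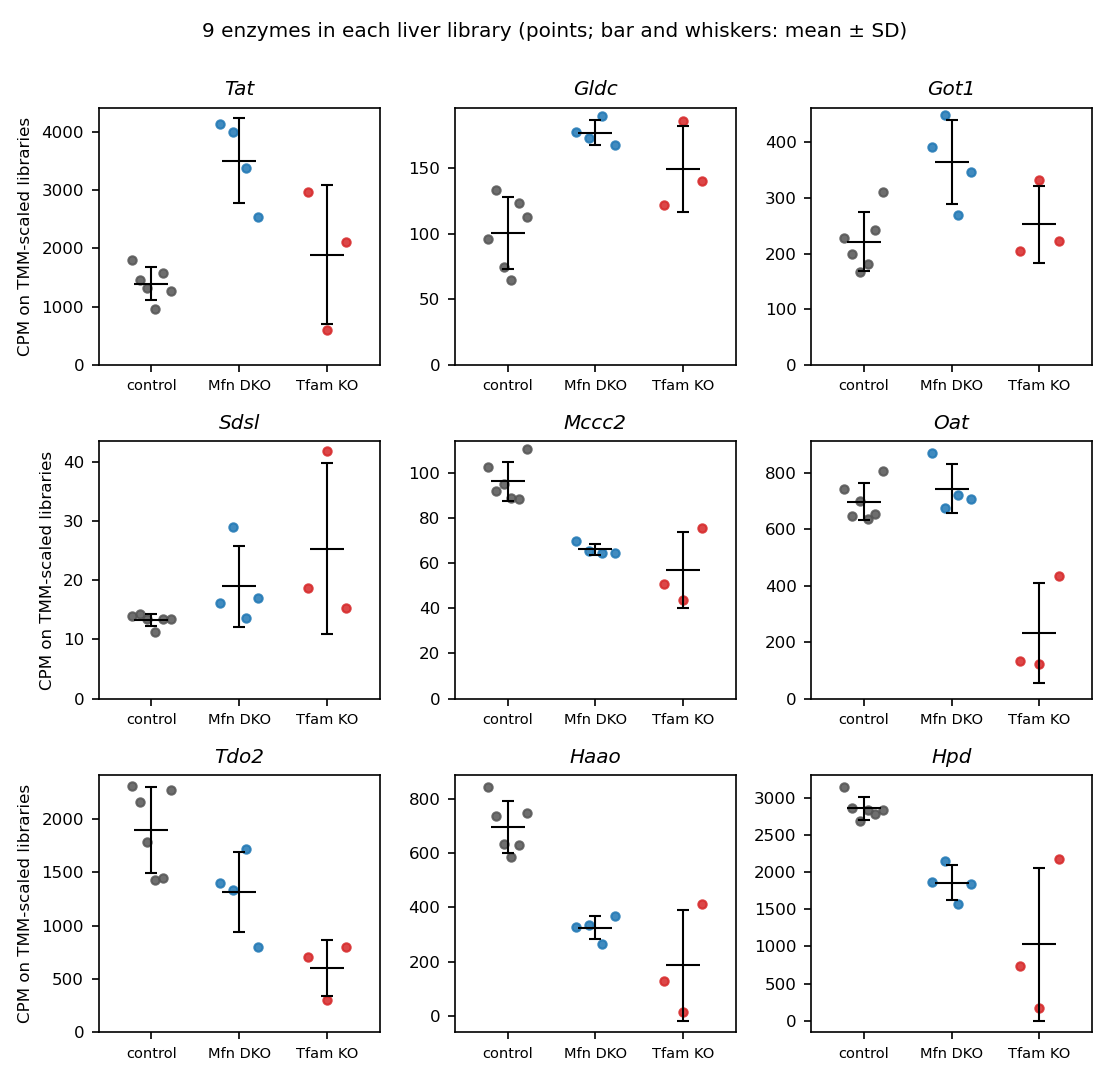
CPM of 9 enzymes in each liver library, with the mean and SD of each group as bar and whiskers. Tat and Gldc in Mfn DKO lie above all controls, Mccc2, Haao and Hpd lie below all controls in both knockouts, and Oat and Tdo2 do so in Tfam KO alone; the lowest Tfam KO point of Haao is 15.2 CPM.

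The count of calls in Tfam KO depended on single livers. Without Tfam KO liver 3 it was 28 (27 lower, with 41.8% of all genes called), without Tfam KO liver 1 it was 9 (8 lower, 19.1%), and without Tfam KO liver 2 it was 13 (12 lower, 14.5%). It was also 13 without each of control livers 1, 4 and 6 (23.1% to 24.9%). Tdo2, Ftcd, Prodh2, Oat, Ivd and Mccc2 were called lower whichever of the 13 livers was left out. Bcat2, like Hpd, Haao and Afmid, kept its call in only 2 of these 13 fits, and none of the 19 lower enzymes changed direction in them. The fits reuse the livers in which the calls were made, so this is no independent support.

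Scaling by library totals alone moved the median of all genes to 0.46 in Tfam KO and 0.21 in Mfn DKO. With it 14 enzymes were lower and 4 higher in Tfam KO (Gldc, Sdsl, Got1 and Mccc1), and the median of the whole list was -0.46. Of all genes 47.9% were then called in Tfam KO, so the count of 18 enzymes was near the background. The split of all genes by direction with this scaling is not given here. Within the Xist-high and the Xist-low livers, all 19 enzymes called lower in Tfam KO had a mean below the controls of their own set. The 4 called in Mfn DKO kept their direction in both sets. These enzymes were picked by their change in the same livers, so the split cannot test their direction independently. Of the whole list, called or not, 33 enzymes had a lower mean in both sets in Tfam KO. The matching share of all genes was not computed. Each set held at most 2 livers of a knockout, and Tfam KO liver 3 lay inside the range of the Xist-high controls for Afmid, Kmo, Prodh, Bcat2 and Ahcy. With Xist as a covariate 16 enzymes were called in Tfam KO (29.7% of all genes), 15 of them lower. In Mfn DKO 6 were called (12.8% of all genes). The Tfam KO calls of Hpd, Afmid, Haao and Aldh4a1 were lost with this covariate (adjusted p = 0.0568, 0.0725, 0.0539 and 0.0620 by edgeR).

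A direct comparison of Tfam KO with Mfn DKO livers called 0 of the 39 enzymes by edgeR, where 0.294% of all genes were called, 0.106% higher and 0.188% lower. The smallest adjusted p was 0.0784, for Oat (-1.68 ± 0.36). By the same test 14 enzymes had an unadjusted p under 0.05, as did 3480 of the 17024 genes. DESeq2 called 3, Tdo2, Oat and Ivd, all lower, where it called 6.39% of all genes. Without overlap, 8 enzymes lay below the Mfn DKO livers (5.10% of all genes) and 0 above (5.72%). Without Tfam KO liver 3, 20 were called, all lower, with 24.0% of all genes. With all 13 livers the edgeR test thus called no difference between the knockouts in these enzymes. DESeq2 called those 3, a count near its share of all genes.

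The other genes of these pathways were read from a list of 57, of which 52 were tested. In Mfn DKO livers 1 was higher and 2 were lower. These were Gpt2, the mitochondrial alanine aminotransferase (1.10 ± 0.31, adjusted p = 0.0407), Acad8, isobutyryl-CoA dehydrogenase of valine breakdown (-0.69 ± 0.10, adjusted p = 0.00160), and Auh, a hydratase of leucine breakdown (-0.46 ± 0.12, adjusted p = 0.0335). The median of the 52 was -0.24.

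In Tfam KO livers 28 of the 52 were lower and 2 were higher, with a median of -0.69. Acad8 fell by 0.97 ± 0.11 (adjusted p = 2.85e-04), Pipox, pipecolate oxidase, by 1.73 ± 0.35, and Aldh7a1, of lysine breakdown, by 1.24 ± 0.27. Asrgl1, an asparaginase, rose by 1.03 ± 0.21 and Phykpl, phosphohydroxylysine lyase, by 0.41 ± 0.14. By route, 10 of the 13 tested genes of branched-chain and propionate breakdown fell, 4 of 5 of lysine, 4 of 8 of serine, glycine and threonine, and 3 of 4 of tryptophan and NAD.

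Genes of the stress response, and transcription and hormone genes, were read beside these enzymes. Whether they act on the enzymes was not tested. Of 8 genes of the stress response, 6 were higher in Mfn DKO and 7 in Tfam KO livers. Trib3, a pseudokinase induced by stress, rose by 4.22 ± 0.34 and 5.43 ± 0.36. In Mfn DKO the next by adjusted p were Fgf21, a secreted hormone (4.82 ± 0.60), and Atf5, a transcription factor (2.22 ± 0.31), and in Tfam KO Ddit3 (3.15 ± 0.43) and Asns, asparagine synthetase (5.93 ± 0.83).

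Of 11 transcription and hormone genes, 2 were lower and 1 was higher in Mfn DKO, and 5 were lower and 1 higher in Tfam KO. Creb3l3, a liver transcription factor, fell by 0.74 ± 0.11 and 1.01 ± 0.12, and Foxa2, a pioneer factor, by 0.86 ± 0.21 and 1.14 ± 0.24. Ppargc1a, a coactivator of mitochondrial genes, rose by 0.66 ± 0.18 and 0.63 ± 0.20. Gcgr, the glucagon receptor, fell by 1.48 ± 0.32 in Tfam KO.

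Zonation markers were read because many of these enzymes differ along the lobule. Of 16 markers 0 were called in Mfn DKO by edgeR, 3 at an unadjusted p under 0.05. In Tfam KO 5 were lower, among them Arg1 (-1.15 ± 0.32), Glul (-1.47 ± 0.41) and Tbx3 (-1.06 ± 0.31), and Cdh1 was higher (1.04 ± 0.34). The summed level of the 8 pericentral markers was 9689 to 14521 CPM in controls, 3631 to 5858 in Mfn DKO and 643 to 6332 in Tfam KO. Most of this sum was Cyp2e1, at 7619 to 12038, 2621 to 4569 and 235 to 4796 CPM. In Mfn DKO, Cyp2e1, Glul and Slc1a2 lay below all controls, while Cyp1a2, Lgr5, Axin2, Rhbg and Tbx3 overlapped them. The sum of the 8 periportal markers was 10480 to 15384 CPM in controls, 11611 to 17023 in Mfn DKO and 4223 to 11531 in Tfam KO. The part of zonation in the enzymes' change was not tested.

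In islets many of the enzymes were expressed at low levels and fewer could be tested. In Tfam KO against control islets 31 of the 39 passed the filter on low counts. The 8 left out were Hpd, Hgd, Hal, Uroc1, Ftcd, Prodh2, Bhmt and Dmgdh. With sex as a term, 4 were higher, 5 lower and 22 not called, where 20.9% of 19752 genes were called, 11.6% higher and 9.29% lower. The median of the 31 was -0.09, and that of all genes -0.01.

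Got1 rose the most. Its levels in the 6 Tfam KO islets were 54.5 to 69.1 CPM (median 59.4), against 24.5 to 33.1 (median 27.4) in the 8 controls, without overlap. The fold was 2.17 (log2 1.12 ± 0.07, adjusted p = 2.22e-08). Ahcy was 33.7 to 51.6 CPM (median 43.9) against 19.6 to 30.7 (median 26.7), also without overlap (0.72 ± 0.12, adjusted p = 3.23e-04).

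Sdsl, the 1 enzyme higher in Tfam KO livers, was 7.85 to 9.84 CPM (median 8.85) against 3.74 to 6.53 (median 4.97) in islets (0.80 ± 0.11, adjusted p = 9.17e-05). Hibch rose by 0.21 ± 0.06. Without overlap 3 enzymes lay above the controls (4.83% of all genes) and 1, Bcat2, below (2.66%). Bcat2 was 14.8 to 17.9 CPM against 19.9 to 31.2 (-0.44 ± 0.09, adjusted p = 0.00189).

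Tat fell by 0.48 ± 0.11, Aldh4a1 by 0.32 ± 0.08 and Ivd by 0.30 ± 0.08 in these islets. Aass, at 0.258 to 1.29 against 0.618 to 2.49 CPM, fell by 1.04 ± 0.27 (adjusted p = 0.0108). Scaling by library totals alone moved the median of all genes by 0.20 and the split to 7 higher and 2 lower. Of all genes 34.6% were then called, so the 9 calls among the 31 enzymes tested were below that share. With this scaling all 5 lower enzymes kept a negative change, and Bcat2 (-0.23) and Aass (-0.82) kept their calls. Tat (-0.27), Aldh4a1 (-0.11) and Ivd (-0.09) were then not called. Summed acinar markers were 1156 to 11358 CPM in control and 1748 to 20485 in Tfam KO islets. With an acinar score as covariate 9 enzymes were called again, and the share of all genes is not given here.

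Of the enzymes called in both Tfam KO tissues, Ivd, Bcat2 and Aldh4a1 were lower in both and Sdsl was higher in both. Ahcy was lower in Tfam KO livers and higher in Tfam KO islets. The difference between the tissues was not tested, since they were fitted apart and their levels differ manyfold. Of the other pathway genes in Tfam KO islets 8 were higher and 6 lower of 48 tested, and all 8 stress genes were higher. In the Clec16a islets 4 were higher and 0 lower of 48 on RFD by edgeR, and 5 higher and 2 lower on HFD.

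In islets labelled Clec16a KO, 29 enzymes were tested on each diet. On RFD 3 were higher, 2 lower and 24 not called, where 7.52% of 17254 genes were called, 3.99% higher and 3.54% lower. On HFD 2 were higher and 3 lower, with 9.57% of genes called, 5.62% higher and 3.95% lower. The medians of the 29 were 0.01 and -0.08. These counts of 5 and 5 were above the share of all genes, but several of the genes were near the limit of detection.

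Aass, aminoadipate semialdehyde synthase (ENSMUSG00000029695, chr6:23072173-23132986), changed most. On RFD it was 5.03, 16.4, 8.0 and 18.5 CPM in the KO against 0.269, 1.32, 0.661 and 0.305 CPM in controls, without overlap (4.18 ± 0.74, adjusted p = 0.00375). On HFD it was 27.1, 9.93, 26.0, 1.15 and 22.4 CPM against 0.380 to 1.69 (median 1.10). The value of 1.15 is that of KO HFD 4, which lay inside the control range, while the other 4 lay above it.

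With all 5 KO HFD libraries the Aass change was 4.02 ± 0.60 (adjusted p = 5.03e-04), and without KO HFD 4 it was 4.33 ± 0.44. In Tfam KO islets Aass had moved the other way. The raw counts of Aass in the Clec16a controls were 7 to 61, so the fold against them is imprecise.

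Gldc was 4.06, 6.57, 3.59 and 5.36 CPM on RFD against 1.76 to 2.34 in the 4 controls, without overlap (1.33 ± 0.32, adjusted p = 0.0164). On HFD it was 5.21, 8.13, 7.99, 2.07 and 8.26 CPM against 1.05 to 1.90 (2.03 ± 0.28, adjusted p = 3.40e-04), and without KO HFD 4 the change was 2.26 ± 0.20. Gldc was thus higher in Mfn DKO livers and in both sets of Clec16a KO islets, and was not called in the Tfam KO tissues. Got1 was 30.6, 33.2, 30.2 and 39 CPM on RFD against 19.8 to 23.5 (0.60 ± 0.14, adjusted p = 0.0164). On HFD Got1 was not called (0.38 ± 0.12, adjusted p = 0.0575), and without KO HFD 4 it was (0.49 ± 0.10, adjusted p = 0.00173).

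Kynu fell on both diets, by 2.24 ± 0.57 on RFD (adjusted p = 0.0206) and 1.93 ± 0.49 on HFD (adjusted p = 0.0174), or 2.31 ± 0.54 without KO HFD 4. Its levels were low, at 0.151 to 0.370 CPM on RFD and 0 to 0.550 on HFD, against 0.736 to 1.5 and 0.408 to 2.07. Summed leukocyte markers were 5.88 to 8.81 CPM in the KO and 11.9 to 21.3 in controls on RFD, and 6.93 to 30.0 and 11.9 to 25.6 on HFD. Their part in the change of Kynu was not tested. Tdo2 was 0.335 to 0.80 CPM on RFD against 1.34 to 1.54 (-1.35 ± 0.40, adjusted p = 0.0422), without overlap.

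**Figure D5:**
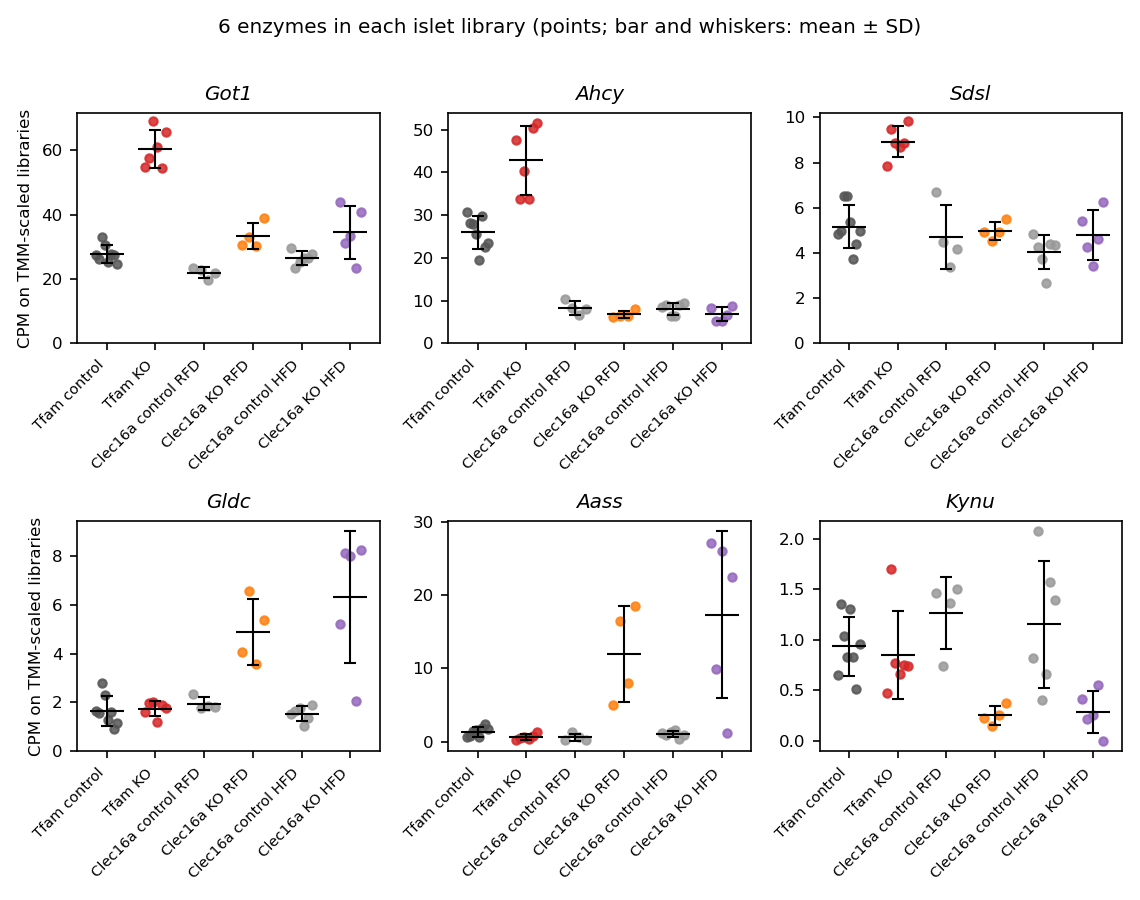
CPM of 6 enzymes in each islet library, with the mean and SD of each group. Got1, Ahcy and Sdsl are higher in Tfam KO, and Gldc and Aass in Clec16a KO on both diets. For Aass 1 KO HFD library, at 1.15 CPM, lies inside the control range; for Gldc the same library, at 2.07 CPM, is the lowest of its group and just above the controls.

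On HFD Tat fell by 0.71 ± 0.14 (adjusted p = 0.00370) and Fah by 0.46 ± 0.13 (adjusted p = 0.0306). Without KO HFD 4 they fell by 0.85 ± 0.13 and 0.53 ± 0.14. Without overlap 4 enzymes lay above and 3 below the controls on RFD (7.74% and 7.33% of all genes), and 1 above and 1 below on HFD (1.24% and 1.36%). Without KO HFD 4, 10 enzymes were called on HFD, 3 higher and 7 lower, with 20% of all genes called. The 5 added were Got1, Tdo2, Aldh4a1, Ivd and Mccc1. Scaling by library totals alone moved the median of all genes on HFD by 0.12. It gave 4 higher and 2 lower, with 12.3% of all genes called.

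Within each sequencing lane, named in the files, the enzymes called in Clec16a islets kept their direction. They were picked by their change in the same libraries, so the lanes cannot test their direction independently. For Aass the difference in mean log2(CPM + 0.5) was 3.03 and 4.13 on RFD and 3.91 and 2.47 on HFD, in lanes 7 and 8. Some differences were small, such as that of Got1 on HFD, at 0.70 and 0.10. On RFD lane 8 held only 1 KO library. The RFD count fell to 1 call without control RFD 3 (2.98% of all genes). It fell to 2 without control RFD 4 or KO RFD 2 (3.46% and 4.66%), and to 3 without KO RFD 4 (4.31%). On HFD it fell to 3 without KO HFD 2 or KO HFD 3 (4.81% and 4.67%). Aass was called in every one of these fits. Summed acinar markers were 4705 to 10601 CPM in control and 2030 to 14144 in KO islets on RFD, and 10230 to 31264 and 9052 to 20806 on HFD. With the acinar score as covariate 6 enzymes were called on each diet, and the share of all genes is not given here.

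The difference between the diets was tested as an interaction of genotype with diet, and 0 of the 29 enzymes were called by edgeR, as were 0 of all genes (0%). Of all genes, 406 had an unadjusted p under 0.05, and DESeq2 called 20, among them 0 of these enzymes. The largest change relative to its error was that of Afmid (1.02 ± 0.36), and after adjustment it was not called.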

How the data were processed

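The 39 members and all gene lists were chosen with earlier results of these data known, and give no independent support. Per the file headers, each of the 46 deposited tables holds the authors' raw counts, TPM and CPM per gene. The authors' CPM equal the count over the library total. Per the submitters' processing notes the tools were FastQC, STAR 2.6.1b, RSEM 1.3.1, featureCounts, MultiQC and DESeq2, and the build GRCm38; their roles are not given in the sources used here. Of the identifiers 55141 are in GENCODE M21, used for positions.

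The counts were fitted per experiment in R 4.3.3 with edgeR 4.0.16 (TMM, filterByExpr, quasi-likelihood F-test, two-sided, Benjamini-Hochberg over all genes). A gene counts as called where that adjusted p does not exceed 0.05. Liver and Clec16a islet fits had 1 mean per group, and Tfam islets had sex as a term. SE was taken as the fitted change divided by the root of the F statistic. CPM printed are on TMM-scaled library sizes; ratios per library use log2(CPM + 0.5). TPM were used as deposited for levels only.

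Named genes are all 39 members, with values per library for the 3 called members of largest change per direction in a liver comparison, and the 3 genes of smallest adjusted p per direction of each other list. Alternatives were DESeq2 1.42.0 (Wald test, size factors), library totals, other filters, covariates, single libraries left out and a replicate block. The interaction with diet was added after the data were seen. The fits were tested on simulated counts. Intervals and tests cover the spread between these samples; no replicate pair of 81 was identical. Promoters are RefSeq's on GRCm38.p6. Protein sequences were not used here.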

Additional observations from a re-analysis of the deposited data

Results flagged for a closer look

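In 116 groups of 4 to 6 values, 5 held a library apart from the rest by Dixon's test, and chance gives about 1 in 20 such groups. Tat in the library labelled Clec16a KO HFD 4 was 33.2 CPM, above the next KO value of 23.2, inside the control range. Tat in female Tfam KO islets 1 was 19.9 CPM, below the next value of 23.5. Gldc in Clec16a control RFD 1 was 2.34 CPM, above 1.85, and still below every KO RFD library. Sdsl in control liver 4 was 11.3 CPM, below 13.4, on the far side from the Tfam KO livers. Bckdhb in control liver 6 was 130 CPM, above 115, and the enzyme was not called in either knockout.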

How the results depend on the processing

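Over 967 alternative values of the 43 called enzyme changes, 774 kept their direction and call, 193 kept the direction without the call and 0 reversed. These changes were followed because they were called in the same libraries, so the lack of reversals is no independent support. Some of these fits left out only a library outside the compared groups, which can move a change little. Against 4 calls in Mfn DKO livers, no filter on low counts gave 2 and the replicate block 0. DESeq2's Wald test gave 7 (16.9% of all genes) and the 2 compared groups alone 17 (27%). Against 20 in Tfam KO livers the 2 groups alone gave 8 (19.6% of all genes) and the replicate block 1. Against 0 between the knockouts, library totals gave 1 (7.2% of all genes) and DESeq2 3 (6.39%). On RFD a minimum of 10 counts gave 3 in place of 5, and on HFD the replicate block gave 3 in place of 5. Deviations of same-numbered samples had a median correlation of 0.0873 in livers, 0.0653 in Tfam islets and -0.0163 in Clec16a islets, so the replicate numbers were not taken to pair the samples. In Tfam KO islets the block gave 8 in place of 9, on RFD 4, and between the knockouts and for the interaction 0. Counts in this paragraph without a share of all genes have no background beside them.

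With single libraries left out in turn there were 0 to 13 calls in Mfn DKO livers, 9 to 28 in Tfam KO livers, 0 to 20 between the knockouts, 8 to 9 in Tfam KO islets, 1 to 7 on RFD and 3 to 10 on HFD. The share of all genes called ran from 4.05% to 19.5%, 14.5% to 41.8% and 0.142% to 24% in the liver comparisons, in that order. In the islet comparisons it ran from 14.9% to 25.3%, 2.98% to 12% and 4.67% to 20%. The interaction gave 0 throughout. The 36 enzymes with liver above islets in TPM were 36 in CPM. A count of 0 in an islet library allows up to 3 counts, so absence cannot be shown for the enzymes listed at 0.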

Other observations

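Bcat1 and Gpt2, chosen after their values were seen, were also higher in the Clec16a islets. Bcat1, the cytosolic branched-chain aminotransferase, was 2.69 to 11.1 CPM in KO RFD islets against 0 to 0.265 in controls. On HFD it was 41.2, 30.8, 30.5, 0.262 and 18.9 CPM against 0.0267 to 0.306, and the value of 0.262 is again that of KO HFD 4. By edgeR's test the adjusted p was 0.00377 on RFD and 1.12e-04 on HFD. Gpt2 was higher in Mfn DKO livers (1.10 ± 0.31), Tfam KO islets (1.51 ± 0.24) and Clec16a KO islets on RFD (1.14 ± 0.27) and HFD (1.17 ± 0.23), and was not called in Tfam KO livers. Shmt2, the mitochondrial serine hydroxymethyltransferase, was higher in the 3 islet comparisons, by 0.59 ± 0.10, 0.69 ± 0.20 and 0.60 ± 0.17.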
